A study of Mus musculus with 2 samples.

Results

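Eef1a2 and Rpl3l, the muscle forms of a translation elongation factor and of a ribosomal protein, were read together with their ubiquitous counterparts Eef1a1 and Rpl3 in long-read RNA sequencing of mouse gastrocnemius. These 4 genes were chosen by name, and every transcript model listed under one of the names was kept: 50 models of 79323 in replicate 1 and 62 of 90517 in replicate 2, from 4 of 15622 genes detected. The gastrocnemius, a mostly fast muscle of the calf, was taken from 25-day-old male mice of strain B6CASTF1/J, an F1 cross of C57BL/6J and CAST/EiJ, with no treatment named, and 2 µg of total RNA went into each of the 2 libraries. The labels give the libraries as biological replicates of separate animals under 1 donor record, and with 1 library on each side a p-value between them rests on counting error and does not measure the spread between animals. There was 1 group and 1 age, and each test below compares libraries, not conditions. A change with age could not be seen.

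The elongation factor eEF1A carries aminoacyl-tRNA to the ribosome. Eef1a1 makes it in most tissues, and Eef1a2 is known to take over after birth in skeletal muscle, heart and neurons. Rpl3 is a protein of the large ribosomal subunit that reaches towards the peptidyl transferase centre, and Rpl3l is its paralogue in skeletal muscle and heart.

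The members of each pair differ along their reference coding sequences, and how well single reads were told apart was not tested. Over 1389 aligned coding bases Eef1a2 was 80.1% identical to Eef1a1, and 224 of their 276 mismatches (81.2%) fell at the third codon position. Rpl3l and Rpl3 were 73.8% identical over 1212 bases, and 184 of 318 mismatches (57.9%) were at that position. The most alike 90-base stretch held 9 mismatches in the Eef1a pair and 16 in the Rpl3 pair. The 90-base stretch with the lowest identity in each pair is shown to make the distance visible, with mismatches in capitals. In the Eef1a pair it spans coding bases 634 to 723, with 29 mismatches.
Eef1a2: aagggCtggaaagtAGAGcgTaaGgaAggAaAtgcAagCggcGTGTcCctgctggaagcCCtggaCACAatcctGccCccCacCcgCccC
Eef1a1: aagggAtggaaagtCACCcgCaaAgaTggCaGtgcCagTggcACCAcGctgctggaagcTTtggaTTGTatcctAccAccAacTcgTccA
In the Rpl3 pair it spans coding bases 856 to 945, counted in Rpl3l, with 34 mismatches.
Rpl3l: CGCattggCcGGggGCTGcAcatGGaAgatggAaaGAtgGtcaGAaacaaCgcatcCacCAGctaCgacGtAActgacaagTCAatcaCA
Rpl3: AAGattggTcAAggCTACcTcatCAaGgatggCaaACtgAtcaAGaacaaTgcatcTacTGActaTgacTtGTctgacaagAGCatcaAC

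The libraries held 1215785 and 1549606 reads in annotated genes, with replicate 1 given first here and below, and a count of 0 allowed up to 2.47 and 1.94 CPM (reads per 1000000 reads in annotated genes). The 6 skeletal fibre markers Acta1, Ckm, Mylpf, Tnnc2, Tnni2 and Myh4 summed to 211202 and 232768 CPM, so markers of the labelled tissue were abundant. Neurons also use Eef1a2, and heart uses both muscle paralogues. The 6 neuron markers summed to 2.47 and 4.52 CPM, with Snap25 and Nefl at 0 in both libraries. The 6 cardiac markers summed to 4.94 and 3.23 CPM, with Nppa, Myl7 and Ryr2 at 0 in both. The libraries differed in other respects. Fibroblast markers summed to 4593 and 923 CPM with all 6 detected in each library, and Schwann markers stood at 28.8 and 250.4 CPM, with 6 and 5 of 6 detected (Mag at 0 in replicate 2). In tissue RNA, fewer cells of a type and less RNA per cell cannot be told apart. The difference between libraries also varied with transcript length (below), and the part of length in these sums was not tested. Of 8692 genes with 10 or more reads, 43.3% passed an adjusted p of 0.05 between the libraries.

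The muscle paralogue was the major form in both pairs and in both libraries. Eef1a2 (chr2:181147653-181157014 of mm10, minus strand, 8 exons) had 262 and 333 reads, or 215.5 and 214.9 CPM. Eef1a1 (chr9:78478449-78489151, minus strand, 8 exons in the main transcript) had 60 and 45 reads, or 49.4 and 29.04 CPM. Rpl3l (chr17:24727820-24736143, plus strand, 10 exons) had 438 and 597 reads, or 360.3 and 385.3 CPM. Rpl3 (chr15:80077791-80091868, minus strand, 10 exons in the main transcript) had 64 and 102 reads, or 52.6 and 65.8 CPM. Within each pair the lowest muscle value lay far above the highest ubiquitous value.

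**Figure D1:**
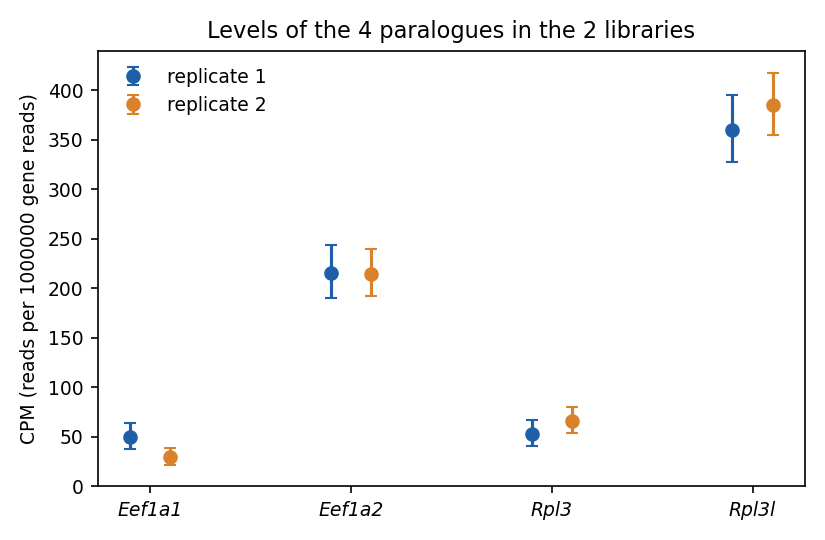
Level of each gene in CPM (reads per 1000000 reads in annotated genes) in replicate 1 (blue) and replicate 2 (orange); bars are exact 95% Poisson intervals and cover counting error only. Eef1a2 sits near 215 CPM in both libraries and Rpl3l above 360 CPM, while Eef1a1 and Rpl3 stay below 66 CPM.

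Scaled to the length of the main annotated transcript, Rpl3l stood at 271.1 ± 12.9 CPM per kb (SD, n = 2), Eef1a2 at 103.3 ± 0.21, Rpl3 at 43.8 ± 6.90 and Eef1a1 at 21.8 ± 8.01 CPM per kb. The order was the same in each library. Rpl3 and Eef1a1 were the closest neighbours in it, at 38.96 and 27.5 CPM per kb in replicate 1 and 48.7 and 16.2 in replicate 2. The genes nearest in level, by distance of log2(CPM + 1) over the 2 libraries and not per length, were Irak1, Ncaph2 and Tsc22d4 for Eef1a1, and Rbm38, Pdlim5 and Eif4a2 for Eef1a2. For Rpl3 they were Gm42418, Tomm22 and Pfdn2, and for Rpl3l Slc25a11, Prr33 and Ank1.

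Eef1a2 outnumbered Eef1a1 4.37 to 1 in replicate 1 (95% Clopper-Pearson interval 3.29 to 5.88) and 7.40 to 1 in replicate 2 (5.41 to 10.3). Its share of the pair's reads was therefore 81.4% and 88.1%. Per kb of transcript the ratio was 3.76 and 6.37. The libraries differed in this ratio by a log2 difference of 0.76 (two-sided Fisher exact p = 0.0145, 0.0291 adjusted over the 2 pairs). The tests and intervals cover counting error only. They take each read as an independent molecule, which was not tested.

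Rpl3l outnumbered Rpl3 6.84 to 1 in replicate 1 (5.26 to 9.04) and 5.85 to 1 in replicate 2 (4.74 to 7.29). Its share was 87.3% and 85.4%, and the ratio per kb was 6.72 and 5.75. The libraries' intervals overlapped, and the log2 difference of -0.23 did not pass the test (two-sided Fisher exact p = 0.397, the same after adjustment over the 2 pairs).

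Eef1a1 was the member whose level passed the test between libraries, 1 of 4 against the 43.3% of all tested genes. It was lower in replicate 2, with a log2 ratio of CPM + 1 of -0.75 (counting SE 0.28, Fisher exact adjusted p = 0.0207), in a direction shared by 26.3% of tested genes. The ratio was -0.00 for Eef1a2 (adjusted p = 1 by the same exact test), 0.32 for Rpl3 (0.290) and 0.10 for Rpl3l (0.429). With edgeR's TMM scaling, which moved the median of all genes by 0.27, the call on Eef1a1 was lost (exact adjusted p = 0.181, log2 -0.46) and the other 3 were called higher in replicate 2 (log2 0.29 for Eef1a2, 0.60 for Rpl3 and 0.39 for Rpl3l). With a coefficient of variation of 0.2 between animals assumed in edgeR's exact test, the adjusted p of Eef1a1 was 0.338, and over all settings tried it ran from 0.000405 to 0.812. The fibroblast markers were also lower in replicate 2, and their part in the lower Eef1a1 level was not tested.

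The difference between libraries varied with transcript length over all genes. Among 987 genes whose main annotated transcript has 1000 to 1500 bases the median log2 ratio of replicate 2 over replicate 1 was 0.50, among 1079 genes of 1500 to 2000 bases it was 0.00, and among 1907 genes of 2000 to 3000 bases -0.48. Rpl3 (1351 bases) and Rpl3l (1375 bases) lay between the quartiles of their length class, 0.06 and 0.91. Eef1a2 (2084 bases) also lay between those of its class, -0.93 and 0.05. Eef1a1 (1794 bases) lay below the lower quartile of its class, -0.37. The part of length in the members' differences was not tested.

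**Figure D2:**
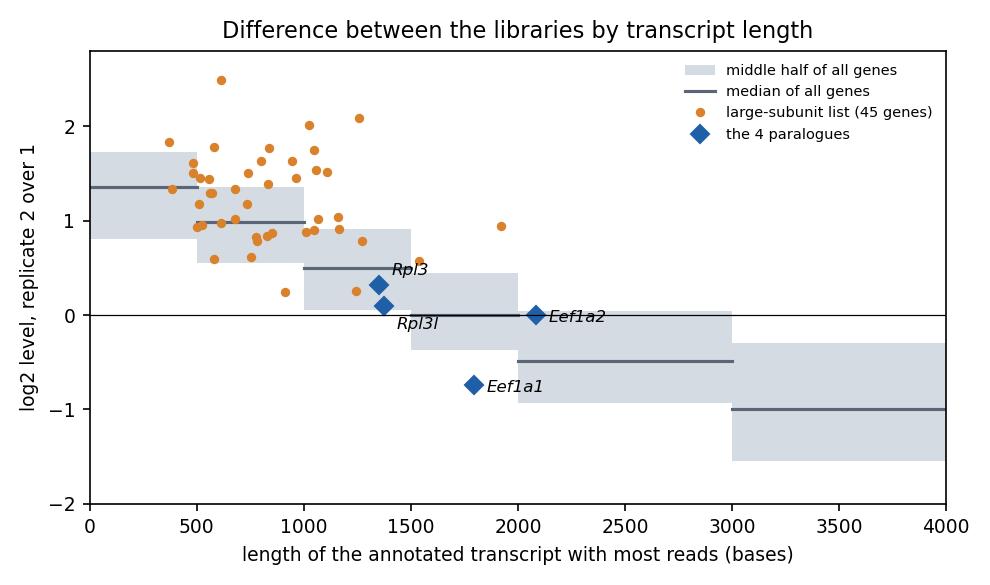
Difference between libraries (log2 level, replicate 2 over replicate 1) against the length in bases of each gene's annotated transcript with most reads. Grey blocks span the quartiles of all genes in each length class, dark lines are medians, the last block holds all genes of 3000 bases or more, orange points are the 45 genes of the large-subunit list and blue diamonds the 4 paralogues; Eef1a1 lies below its block and the other 3 within theirs.

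Reads of a ubiquitous gene can be placed on its processed pseudogenes, so near-identical copies were sought among annotated transcripts (at least 90% identity over at least 60% of the length). Eef1a2 and Rpl3l had none. Rpl3 had 21, of which Rpl3-ps1 was the single copy with reads: 29 in replicate 1 and 55 in replicate 2, against 64 and 102 on Rpl3. Rpl3-ps1 (chrX:13202571-13203780, plus strand, 1 exon) matches the spliced Rpl3 transcript at 99.8%, with 2 mismatches in 1210 bases. They are C57A and T786C, counted from the A of the Rpl3 start codon with the Rpl3 base first, and the surrounding bases are shown because nothing else in the aligned part separates the loci.
Rpl3, bases 37 to 77: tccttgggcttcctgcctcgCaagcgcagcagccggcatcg
Rpl3-ps1, same bases: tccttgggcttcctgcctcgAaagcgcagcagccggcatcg
Rpl3, bases 766 to 806: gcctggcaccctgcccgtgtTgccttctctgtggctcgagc
Rpl3-ps1, same bases: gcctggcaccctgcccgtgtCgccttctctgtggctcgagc
The tables give no read sequences, so how the reads on Rpl3 and on Rpl3-ps1 divide between the loci cannot be told. With the Rpl3-ps1 reads added to Rpl3, the ratio of Rpl3l to Rpl3 fell to 4.71 (3.76 to 5.96) and 3.80 (3.18 to 4.56), so Rpl3l remained the major form in both libraries.

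Eef1a1 had 13 near-identical copies (92.0% to 97.3% identity), holding a single read, in replicate 1. Unannotated single-exon models of the same strand adjoined the ends of copies, however. The model at chr2:40557116-40557429 beside Gm13456 had 2 and 11 reads, and the model at chr16:51362167-51362452 beside Gm6767 had 0 and 18 reads. These were the only such models outside genes within 500 bases of the 37 entries searched. Of the entries, 34 were the annotated copies of Eef1a1 and Rpl3 and 3 were pseudogenes named in RefSeq, with Rpl3-ps2 in both sets. With copies and adjoining models added to Eef1a1, the ratio of Eef1a2 to Eef1a1 was 4.16 (3.15 to 5.57) in replicate 1 and 4.50 (3.49 to 5.87) in replicate 2, and the difference between libraries no longer passed (two-sided Fisher exact p = 0.703). Whether the adjoining models derive from Eef1a1 was not tested. Eef1a2 remained above Eef1a1 in both libraries either way.

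**Figure D3:**
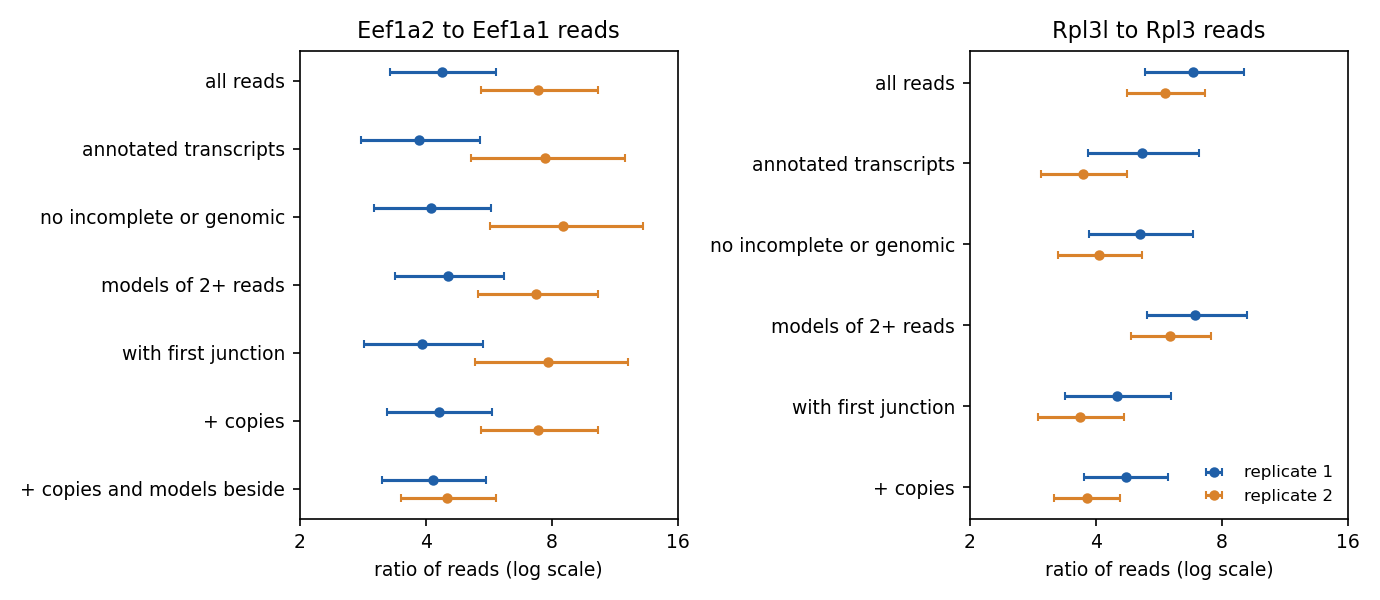
Reads of the muscle paralogue over reads of the ubiquitous one (log axis) for each choice of reads, in replicate 1 (blue) and replicate 2 (orange); bars are 95% Clopper-Pearson intervals. All ratios lie above 3, and the gap between libraries in the Eef1a pair closes when models beside the Eef1a1 copies are added.

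Most reads of each gene followed 1 annotated transcript. Eef1a1-201 had 49 and 27 reads and Eef1a2-201 189 and 208. Rpl3-201 had 51 and 92 reads and Rpl3l-202 268 and 337. Annotated transcripts held 81.7% and 60% of the reads of Eef1a1, 72.1% and 62.5% of Eef1a2, 82.8% and 90.2% of Rpl3 and 62.3% and 57.5% of Rpl3l, beside 65.8% and 70.6% over all genes. Chains with a splice site outside the annotation held 17.3% of all gene reads in replicate 1 and 4.28% in replicate 2, but 6.49% and 6.61% in Eef1a2 and 4.34% and 3.52% in Rpl3l. Genomic reads, unspliced or partly spliced over a gene, were absent from the members except for 21 reads of Rpl3l in replicate 2.

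The ratio of the muscle to the ubiquitous form varied with the class of the reads. Over annotated transcripts it was 3.86 and 7.70 for the Eef1a pair and 5.15 and 3.73 for the Rpl3 pair. Over incomplete matches, which hold part of an annotated intron chain, the Eef1a ratio was 5.6 and 5.72, from 56 and 103 reads of Eef1a2 against 10 and 18 of Eef1a1. The Rpl3 ratio in this class was 33.0 and 24.1, from 132 and 193 reads of Rpl3l against 4 and 8 of Rpl3. Counting incomplete reads thus raised the Rpl3l ratio, and without incomplete and genomic reads it was 5.10 and 4.07.

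**Figure D4:**
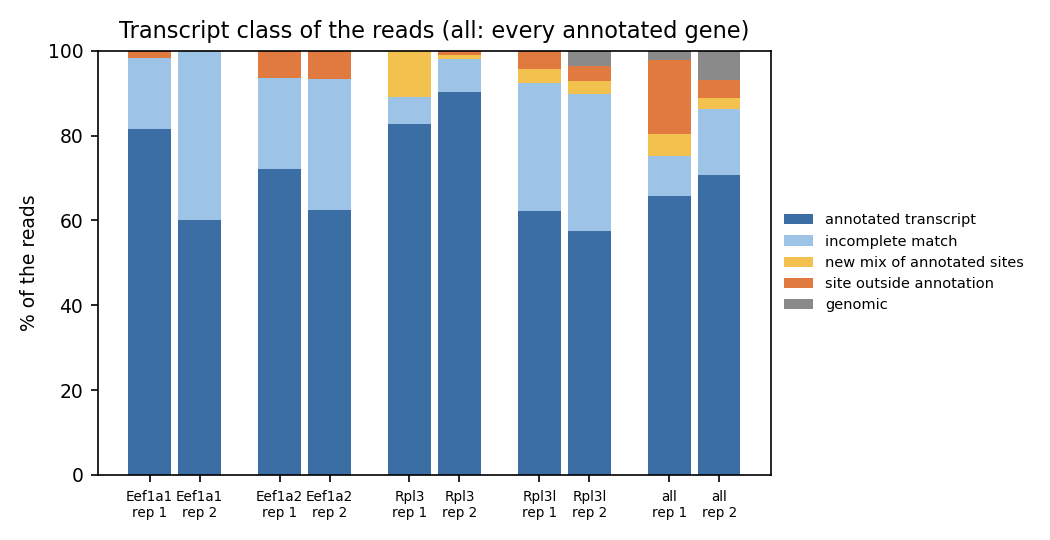
Share of each gene's reads by transcript class (% of the reads), for the 4 paralogues and over every annotated gene, in each replicate. Rpl3 has few incomplete matches (6.25% and 7.84%), whereas Rpl3l has 30.1% and 32.3%.

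The junction of exons 1 and 2 was counted in each gene. Reads without it include those with another first exon and those of a single exon, which hold no junction. Eef1a2 had 4 and 28 single-exon reads, and Eef1a1 had 0 in each library. It was present in 93.8% and 91.2% of Rpl3 reads but in 61.4% (56.7 to 66.0) and 57.1% (53.0 to 61.1) of Rpl3l reads. For Eef1a2 it was in 73.3% and 63.7%, and for Eef1a1 in 81.7% and 60%. The share was lower in replicate 2 for Eef1a1 and Eef1a2 (two-sided Fisher exact p adjusted over the 4 members 0.0331 for each), while Rpl3l (0.239) and Rpl3 (0.768) did not pass. Single-exon reads were part of these totals, and the shares without them were not tested. Over all genes, incomplete matches held 9.28% of reads in replicate 1 and 15.6% in replicate 2, and the part of this shift in the members' shares was not tested. The junction count was chosen after the class shares had been seen.

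A single chain accounted for most incomplete Rpl3l reads: 111 of 132 in replicate 1 and 125 of 193 in replicate 2 held exons 2 to 10 and lacked only the first junction. The model of this chain was given a start at position 24727820 in replicate 1 and 24728174 in replicate 2, both upstream of exon 2 and within or before the first intron (24727887 to 24728316). A model has 1 start for all its reads, so reads cut short in exon 2 and reads that run on into the intron cannot be told apart. The corresponding Rpl3 chain had 2 reads and 0.

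**Figure D5:**
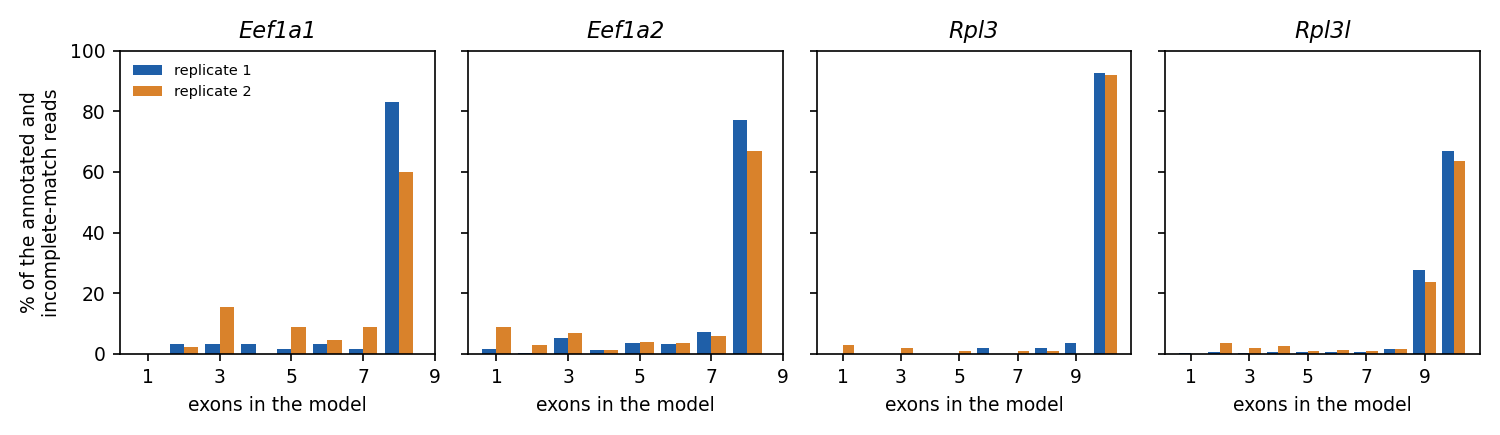
Exons in the model (x axis) against the share of reads on the main annotated transcript and its incomplete matches (%), in replicate 1 (blue) and replicate 2 (orange). Rpl3 reads are nearly all in the full 10-exon model, while Rpl3l has a second bar at 9 exons, the chain without the first junction.

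Rpl3l also used other donors before exon 2. Of reads joined to the acceptor of exon 2, 30 of 299 in replicate 1 (10%, 6.87 to 14%) and 30 of 371 in replicate 2 (8.09%, 5.52 to 11.3) came from a donor other than that of Rpl3l-202. The main alternatives were the donors at 24728076, with 14 and 10 reads, and 24728218, with 10 and 16 reads, the latter annotated in Rpl3l-203. In Rpl3l-202, as in Rpl3-201, the start codon forms the last 3 bases of exon 1. No read was assigned to Rpl3l-203 itself. The unannotated chain with its donor and the most reads, 9 and 16, was given a start at 24728174 in both libraries, downstream of that codon, and 1 further read of replicate 1 with this donor has a model that starts at 24727820, before it. The donor at 24728076 also lies downstream, and its model starts before the codon in replicate 1 (24727820) and after it in replicate 2 (24727890), so whether these reads hold it cannot be told. The 30 bases around each annotated junction are shown, with the codon in capitals, because it abuts the junction in Rpl3l-202 and Rpl3-201 and not in Rpl3l-203.
Rpl3l-202: cagggatcggccATGtcccaccggaagttc
Rpl3l-203: cctctagcctgcgtttcccaccggaagttc
Rpl3-201: tgtggcggcgagATGtctcacaggaaattc
Rpl3 showed no other donor in 60 and 93 such reads, which allows a share of up to 5.0% and 3.23%. Eef1a2 used another donor in 13 of 205 (6.34%) and 11 of 223 reads (4.93%), and Eef1a1 in 1 of 50 and 0 of 27. In these genes the start codon lies in exon 2 and is kept. The short form Rpl3l-201, which starts at 24732685 and has 7 exons, had 5 and 6 reads.

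Rpl3 differed between libraries in the make-up of its reads. Outside the incomplete and genomic classes, Rpl3-201 held 85% of reads in replicate 1 (51 of 60, 73.4 to 92.9) and 97.9% in replicate 2 (92 of 94, 92.5 to 99.7), with a Fisher exact p of 0.0144 adjusted over the 4 members. The same share was 98% and 100% for Eef1a1-201, 91.7% and 90.4% for Eef1a2-201 and 87.6% and 87.99% for Rpl3l-202, with an adjusted p of 1 for each by the exact test. Over annotated transcripts alone the adjusted p for Rpl3 was 0.528, and over reads of all classes 0.0893.

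The reads behind the Rpl3 difference joined exon 3 to an acceptor inside intron 3, a chain looked at because it had the most reads after Rpl3-201. It had 7 and 1 reads, and a further 2 and 0 fell on Rpl3-204, which keeps the whole intron. Of reads that spliced exon 3 to either acceptor, 7 of 61 (11.5%, 4.74 to 22.2) and 1 of 95 (1.05%, 0.0266 to 5.73) used the inner acceptor. This adds 180 bases to exon 4 (chr15:80081032-80081211), as in the annotated Rpl3-205 of the nonsense-mediated decay class, which itself was assigned 0 reads. In frame from the Rpl3 start codon, the first stop is a TGA whose first base is base 176 of the addition. It follows 180 codons, against 403 in the full reading frame, and 6 introns lie downstream of it. The junctions, with exon 4 in capitals, and the added bases, with that stop in capitals, are as follows.
Rpl3-201 junction: cttctataagaactgGCACAAGTCTAAGAA
Rpl3-205 junction: cttctataagaactgCTCCGCTCGGCTCTG
Added bases: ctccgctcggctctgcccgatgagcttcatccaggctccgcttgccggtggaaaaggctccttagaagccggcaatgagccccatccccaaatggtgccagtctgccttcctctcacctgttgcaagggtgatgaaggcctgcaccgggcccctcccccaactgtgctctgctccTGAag
As background, the mammalian Rpl3 protein is known to promote use of such an acceptor in its own transcript, which sends the product to decay. Protein and decay were not measured here.

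Unannotated chains recurred in part. Of chains outside the annotation that were not incomplete matches, 3 of 6 in Eef1a2 and 5 of 10 in Rpl3l in replicate 1 were also read in replicate 2, and they held 13 of 17 and 27 of 33 such reads. In replicate 2, 3 of 12 and 5 of 14 were also in replicate 1. For Rpl3 the 1 such chain of replicate 1 recurred, and for Eef1a1 the 1 such chain, of 1 read, did not.

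RefSeq promoters (GRCm38.p6, 250 bases before to 50 after a start) were found for 3 of the 4 members and not for Rpl3. The MyoD-type E-box CAGCTG, which reads the same on both strands, begins at +44 in Eef1a2 and at -20 in Rpl3l. It occurs in 16.3% of 32851 promoters. A MEF2 site, searched by name on both strands, occurs at -123 before the downstream Rpl3l start at 24732685 and in 3.19% of promoters. None of these motifs was in the Eef1a1 window, nor was TATAAA (13.6% of promoters) or CCAAT (37.4%), on either strand, in any window of the 3 genes. TATAAA and CCAAT were searched as exact letters, so the related TATATAA in the Eef1a1 window was not counted. The windows of the muscle genes are shown for the place of the E-box, in capitals, which is a match of letters and not a measured site.
Eef1a2, chr2:181156966-181157265, minus strand: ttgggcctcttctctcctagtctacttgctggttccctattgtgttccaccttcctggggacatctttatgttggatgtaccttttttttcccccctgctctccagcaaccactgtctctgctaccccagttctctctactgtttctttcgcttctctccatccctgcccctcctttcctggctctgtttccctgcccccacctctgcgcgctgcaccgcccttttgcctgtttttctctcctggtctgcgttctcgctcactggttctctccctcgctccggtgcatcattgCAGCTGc
Rpl3l, chr17:24727576-24727875, plus strand: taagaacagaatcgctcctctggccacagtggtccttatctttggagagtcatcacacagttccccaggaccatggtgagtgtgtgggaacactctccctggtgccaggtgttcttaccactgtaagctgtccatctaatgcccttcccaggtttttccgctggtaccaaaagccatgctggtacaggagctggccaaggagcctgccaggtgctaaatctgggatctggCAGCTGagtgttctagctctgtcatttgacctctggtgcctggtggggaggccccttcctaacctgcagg

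The other elongation factors were read from a list of 16 genes. Of these 14 were tested, and 1 was higher in replicate 2 (17.0% of all tested genes were), 4 were lower (26.3% were) and 9 did not pass, with a median log2 ratio of 0.16 beside -0.27 over all tested genes. With TMM scaling 6 were higher and 4 lower. Eef1d, part of the exchange complex that reloads eEF1A with GTP, was at 111.9 and 154.9 CPM, higher in replicate 2 (log2 0.47, Fisher exact adjusted p = 0.00800). Its partners Eef1g (375.1 and 422.04 CPM) and Eef1b2 (51.8 and 62.6 CPM) did not pass. The lower genes were Eef2, the translocase, at 376.7 and 173.6 CPM, Hbs1l, a ribosome rescue factor, at 128.3 and 61.3 CPM, and Vars, a tRNA synthetase, at 73.2 and 15.5 CPM. The other was Mettl13, a methyltransferase of eEF1A, with 15 reads and 0. Their main annotated transcripts have 2733 bases for Hbs1l (log2 ratio -1.05), 3089 for Eef2 (-1.11), 4137 for Vars (-2.17) and 4541 for Mettl13 (-3.74). Over all genes the median was -0.48 from 2000 to 3000 bases and -0.99 from 3000 bases (3266 genes). The part of length in these differences was not tested. Eif5a was at 475.4 and 528.5 CPM and Eef2k, the kinase of Eef2, at 32.1 and 27.1 CPM without passing. In CPM, Eef1a2 stood above 13 and 14 of the 16 genes of this list, and Eef1a1 above 9 and 8. Per kb, Eef1a2 stood above 11 and 12 of the 14 genes with a length, and Eef1a1 above 9 and 7.

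Large-subunit genes, in contrast, were nearly all higher in replicate 2: 42 of 45, none lower, against 17.0% of all tested genes, with a median log2 ratio of 1.18. The 3 that did not pass were Rpl7a, Rpl12 and Rpl17, and with a coefficient of variation of 0.2 assumed 20 were called higher. Rpl39 had the largest ratio (94 and 682 reads, log2 2.49), and Rpl41, Rpl35 and Rpl5 lay between 1.63 and 2.02. Rpl24 was at 1.34, Rpl13 at 0.78, Rpl4 at 0.58 and Rplp0 at 0.34. Rpl3, at 0.32, lay below all of the list but Rpl7a (0.24) and Rpl12 (0.26), and Rpl3l, at 0.10, lay below all 45. The list's transcripts had a median length of 799 bases, against 2432.5 in the elongation list. Over all genes the median log2 ratio was 1.36 under 500 bases (215 genes) and 0.99 from 500 to 1000 bases (753 genes). The large-subunit list's 13 genes of 1000 to 1500 bases had a median of 1.01, beside 0.50 over the 987 genes of that length. Of these 13 genes 12 were called higher. The part of length in the list's difference was not tested. The difference between Rpl3 or Rpl3l and the list was not tested, and reads on pseudogene copies of the listed genes were not added. In CPM, Rpl3l stood above 42 and 34 of the 45 genes and Rpl3 above 11 and 7. Per kb, Rpl3l stood above 36 and 22 of them and Rpl3 above 8 and 6.

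Among other paralogue pairs of the translation machinery, given as reads and not per length, Eif4a2 also exceeded Eif4a1, by 5.40 and 4.67 to 1. Rpl36al exceeded Rpl36a by 3.05 and 2.96 to 1, and Rpl22l1 exceeded Rpl22 by 1.29 and 2.43 to 1. Rps27l (0.537 and 0.426 of Rps27) and Rpl7l1 (0.378 and 0.236 of Rpl7) were the minor forms. Rps4l had 8 and 1 reads against 197 and 426 of Rps4x. Eif5a2 had 1 and 0 reads against 578 and 819 of Eif5a. Rpl39l and Rpl10l had 0 reads in both libraries.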

How the data were processed

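Long reads of 2 gastrocnemius libraries were used as whole read counts per transcript model, as deposited by the authors. Per the file headers, the build was mm10, and each library's reads were matched on their own to GENCODE M21 transcripts or to new models. The aligner, versions and filters were not given in the sources used here. Counts were summed per gene over all model classes and scaled to reads in annotated genes (1215785 and 1549606). Libraries were compared by two-sided Fisher exact tests with Benjamini-Hochberg adjustment over 8692 genes with 10 or more reads (threshold 0.05), and log2 ratios used CPM + 1. The test was checked on counts simulated without variation between animals, so the check covers counting error only. There it called 31% of genes changed 2-fold, 70% of those changed 4-fold and 0.0589% of unchanged genes. Intervals of shares are Clopper-Pearson (95%), and 3 counts set the limit for a 0. edgeR 4.0.16 and DESeq2 1.42.0 gave other scalings and tests, BLAST 2.17.0 the copies and Biopython 1.88 the alignments, from GENCODE M21 transcripts. Promoters are from RefSeq (GRCm38.p6). Protein sequences planned for comparison were replaced by coding sequences. Members and gene lists were chosen with earlier results of these data known. Named genes were all members, up to 8 of each list with most reads, those with the largest differences and the 3 nearest in level. Of the genes that meet this rule, 1 is not reported here. The genes of a list that did not pass, where 5 or fewer, the Rpl3 acceptor, the first-exon counts, the copies and the length classes were chosen after values were seen.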

Additional observations from a re-analysis of the deposited data

How the results depend on the processing

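No paired analysis was possible because there is 1 group. The ratio of Eef1a2 to Eef1a1 stayed above 1 in each library under every setting run, with a mean log2 of 2.51 and 2.13 to 2.89 when either library was left out, as did that of Rpl3l to Rpl3 (2.66, and 2.55 to 2.77). The mean log2 of Rpl3l to Rpl3 moved to 2.13 over annotated transcripts, 2.19 without incomplete and genomic classes and 2.02 over reads with the first junction. These settings removed reads of both genes, and a larger part of those of Rpl3l. With named pseudogenes or near-identical copies added it was 2.08, and such additions to Rpl3 can only lower it. The difference between libraries in the Eef1a pair fell to 0.11 on the log2 scale with copies and adjoining models added, and did not pass. In the main setting it passed after adjustment over the 2 pairs (Fisher exact adjusted p = 0.0291). Under the remaining settings the exact p was not adjusted. It was highest, at 0.0303, over models with 2 or more reads, where the exact p of the Rpl3 pair was 0.438. The adjustment over the 2 pairs used in the main setting would take this highest p above the threshold. The difference would therefore not pass over models with 2 or more reads. Whether each other setting passes after adjustment was not tested. Scaling per kb kept the main test, and named pseudogenes added no Eef1a1 reads, so neither could change the p. Between libraries, Eef1a1 lost its call with TMM scaling (-0.46), DESeq2 size factors (-0.44) and a coefficient of variation of 0.2 or 0.4 (-0.75 each). Eef1a2 turned from -0.00 to 0.29 and 0.31 with TMM and DESeq2 scaling and was then called, as were Rpl3 (0.60 and 0.63) and Rpl3l (0.39 and 0.41); these scalings moved the median of all genes by 0.27 and 0.30. Of 3766 genes called between libraries, 39.3% were higher in replicate 2, but 55.0% with TMM and 56.4% with DESeq2 scaling, and 26.2% over annotated transcripts. The count was 1345 with a coefficient of variation of 0.2 and 8 with 0.4. For the share of the main transcript (percentage points, replicate 2 minus replicate 1), Rpl3 lost its call over annotated transcripts (3.77) and over all classes (10.5). Over all classes Eef1a1 turned from 2.00 to -21.7 and Eef1a2 went from -1.31 to -9.67, both then called, since that total includes incomplete reads. The large-subunit list had 42 of 45 higher under both scalings, 37 of 44 over annotated transcripts, 20 with a coefficient of variation of 0.2 and 0 with 0.4. Reads set the limit for Eef1a1 and Rpl3, with 45 to 102 per library. Copies added, first junctions, adjoining models and scaling to all reads were settings chosen after seeing the data.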
